A study of Rattus norvegicus with 84 samples.

Results

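The genes examined here encode the receptors for glutamate and GABA, and they were taken by symbol from the mRNA count table of extracellular vesicle (EV) RNA from rat brain and plasma. The rule named the subunits of the AMPA (Gria), NMDA (Grin), kainate (Grik) and delta (Grid) receptors, the metabotropic glutamate receptors (Grm), and the subunits of the GABA-A (Gabr) and GABA-B (Gabbr) receptors. It found 44 genes among 18782 annotated genes, 25 for glutamate and 19 for GABA. The table holds 7855 further rows for unannotated genes, which were counted in the library totals only.

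The study collected vesicles from 21 wild-type adult male Sprague-Dawley rats aged 8 to 12 weeks. Stroke was produced in 18 of them by transient occlusion of the middle cerebral artery (tMCAO) for 90 min, and 3 days later they received either saline (control) or human neural stem cells (hNSCs, treatment) into the carotid artery. Rats were killed 4, 10 or 31 days after stroke, 3 per group and day, and 3 healthy rats served as the reference. The healthy rats are not described as sham-operated, so surgery and ischemia cannot be told apart in the comparisons with them. Brain vesicles came from the ipsilateral hemisphere, and brain and plasma were both collected from the 3 rats of a group, which gave 3 brain and 3 plasma libraries, 42 in all. The labels number these libraries but do not say which brain and plasma library came from the same rat.

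Glutamate is the main excitatory transmitter of the brain and GABA the main inhibitory one. AMPA, NMDA and kainate receptors are cation channels assembled from several subunits, and GABA-A receptors are chloride channels assembled in the same way, whereas the metabotropic glutamate receptors and GABA-B receptors signal through G proteins. Receptor genes are expressed mostly in neurons, which are lost in the core of an infarct, although astrocytes and oligodendrocyte precursors also use some of them.

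The brain libraries held 569136 to 15587200 counts on annotated genes, and the plasma libraries 6357680 to 31028600. Annotated genes took 3.18% to 51.9% of all counts in brain, and this share differed between groups: 7.11% to 20.9% in healthy rats, 22.0% to 25.3% in control rats at day 4, 11.3% to 13.4% at day 10 and 30.3% to 43.0% at day 31. The scale therefore matters for every comparison with healthy rats. Values are given as CPM, read counts relative to library size, scaled by TMM factors over annotated genes unless stated, and the main comparisons were repeated with the total of all counts as the scale.

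The labelled tissue was checked on marker genes. All 8 pan-neuronal, 6 glutamatergic neuron, 7 GABAergic neuron and 5 astrocyte markers had counts in brain libraries. Pan-neuronal markers summed to between 5048 and 6148 CPM in healthy brain, and the 5 T cell markers were at 0 there.

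Levels can be compared between genes only per length, so the order of the receptors is given in FPKM (fragments per kilobase of gene, scaled to depth), averaged over the 21 brain libraries. Gabbr1, the GABA-binding subunit of the GABA-B receptor, was highest at a mean of 7.61 FPKM and ranked 292nd among annotated genes. Grin1, the subunit that every NMDA receptor contains, followed at 4.88 FPKM, ahead of the AMPA subunit Gria1 at 4.03 FPKM and the kainate subunit Grik5 at 3.24 FPKM. Gria2, which makes AMPA channels poorly permeable to calcium, had a mean of 2.98 FPKM, Gabbr2 2.81 FPKM, Grin2b 2.20 FPKM and Grin2a 1.72 FPKM. Each of these 8 genes had at least 10 counts in every brain library. The ranges of neighbours in this order overlapped, since a single gene such as Gabbr1 ran from 1.46 FPKM upward between libraries. By receptor type, NMDA subunits supplied 22.3% of the summed FPKM of the 44 genes, GABA-B 22.0%, AMPA 20.5%, GABA-A 14.8%, kainate 11.4%, metabotropic glutamate receptors 7.18% and delta receptors 1.97%. These shares pool libraries of all groups, and in the 3 healthy libraries alone NMDA subunits held 23.8% ± 1.10, AMPA 21.5% ± 1.52 and GABA-B 20.4% ± 1.62 (SD, n = 3), with AMPA ahead of GABA-B. Of the 44 genes, 23 had counts in every brain library and 43 in at least 1, and Gabrp, a GABA-A subunit, had none in brain.

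Promoter sequence is shown for the 2 genes with the highest mean FPKM, Gabbr1 and Grin1, as RefSeq gives it on GRCr8 from 250 bases before to 50 bases after the start of the gene. The Gabbr1 window is chr20:1499187-1499486 on the minus strand and the Grin1 window chr3:28528705-28529004 on the minus strand. Capitals mark the GC box GGGCGG on either strand.
Gabbr1: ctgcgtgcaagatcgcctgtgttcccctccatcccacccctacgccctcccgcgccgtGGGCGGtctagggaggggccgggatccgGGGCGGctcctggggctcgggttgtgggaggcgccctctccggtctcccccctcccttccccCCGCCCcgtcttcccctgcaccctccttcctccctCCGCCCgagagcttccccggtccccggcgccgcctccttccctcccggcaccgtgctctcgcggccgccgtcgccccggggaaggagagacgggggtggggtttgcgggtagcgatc
Grin1: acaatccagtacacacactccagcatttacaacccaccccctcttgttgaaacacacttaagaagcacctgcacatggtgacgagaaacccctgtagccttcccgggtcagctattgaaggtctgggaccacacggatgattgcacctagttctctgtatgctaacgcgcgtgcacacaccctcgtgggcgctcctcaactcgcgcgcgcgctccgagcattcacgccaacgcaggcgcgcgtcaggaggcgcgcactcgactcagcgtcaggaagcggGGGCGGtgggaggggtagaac
Of the 44 genes, 28 had an entry, and 12 of them (42.9%) held a GC box, against 33.1% of 33469 promoters of the same length. The Gabbr1 window held 4 and the Grin1 window 1. The window of Grin2c, an NMDA subunit, held none.

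To ask how receptor transcripts in brain vesicles differed after stroke, control rats at each day were compared with healthy rats in 1 edgeR quasi-likelihood model of the 7 groups, and 40 of the 44 genes passed the filter on low counts. Gabre, Gabrr3, Gabrp and Grm6 did not pass it. A gene counted as called where its adjusted p lay below 0.05 and it differed by more than 1.5-fold. The summed level of the 44 genes was 6364 to 7122 CPM in healthy brain, 3038 to 3749 CPM in control rats at day 4, 2307 to 6028 CPM at day 10 and 3964 to 4752 CPM at day 31. Every control library was below every healthy library on this scale. The 4 comparisons with healthy rats share the same 3 healthy libraries, so they are not independent of each other.

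At day 4, 1 of the 40 genes tested was called, Gria3, which fell, where 0.131% of 14515 genes were called lower and 0.861% in either direction. At day 10, day 31 and in the mean of the 3 days no receptor gene was called by edgeR, where 0.572%, 0.00689% and 0.186% of genes were called. At an unadjusted p under 0.05, 11 of the 40 were lower and 1 higher at day 4, beside 6.31% and 8.52% of all genes. The counts were 9 and 1 at day 10 (5.13% and 7.54%), 7 and 1 at day 31 (1.84% and 5.30%) and 13 and 1 in the mean (5.24% and 7.05%). The receptor genes thus leaned to lower values more than all genes did, while few passed the adjusted threshold. DESeq2 called 7, 2, 2 and 6 genes lower in these 4 comparisons, beside 1.72%, 0.641%, 0.289% and 0.930% of all genes. On log2(FPKM + 1), limma called 0, 0, 20 and 0, the 20 at day 31 all higher, where 57.0% of all genes were called higher. The shares of all genes that limma called in the other comparisons are not given here. Its counts of 0 there are therefore not read as a result about the receptors.

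The fitted log2 fold change was below 0 for 36 of 40 genes at day 4 (all genes 47.0%), for 35 at day 10 (48.9%) and for 35 at day 31 (36.9%). Their median was -0.96, -0.76 and -0.55, beside 0.05, 0.00 and 0.24 for all genes tested. The day 10 median rested on single libraries, at -1.12 without control day 10 replicate 1 and -0.42 without control day 10 replicate 2. With the total of all counts as the scale, the medians became -0.18, -0.89 and 0.91, beside 0.75, -0.19 and 1.66 for all genes, and at day 31 none of the 40 was below 0. The direction at day 31 thus turned with the scale, and at day 4 most of the shift was gone. Relative to the median of all genes the receptor median stayed lower on each scale, by 1.00, 0.76 and 0.79 with TMM factors, by 0.93, 0.70 and 0.75 with totals of all counts, and by 0.22, 0.16 and 0.09 on the log2(FPKM + 1) scale.

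**Figure D1:**
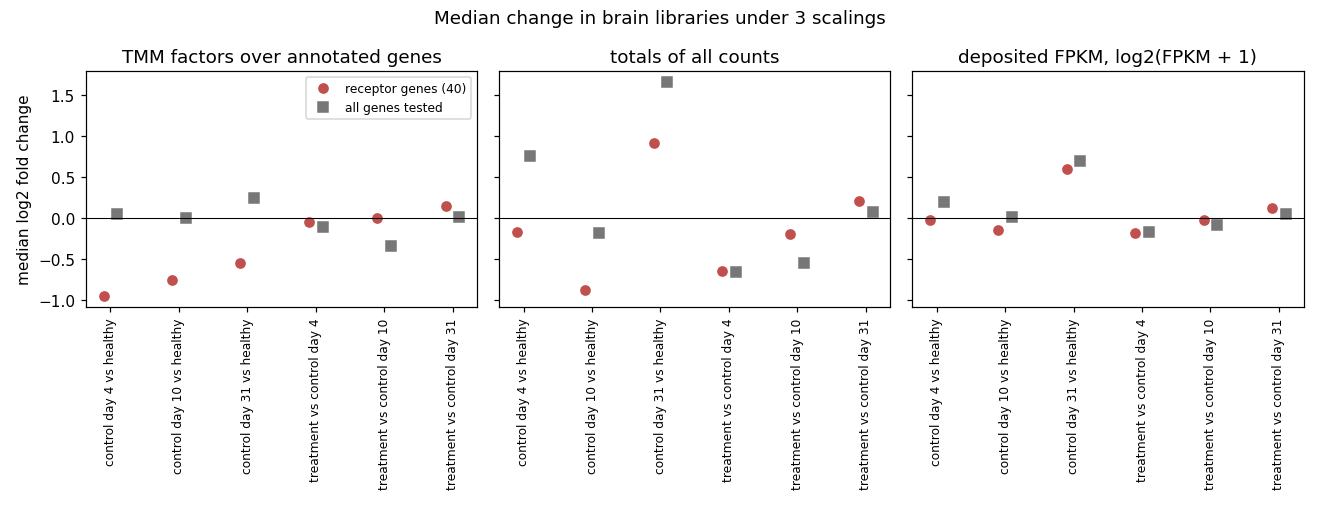
Median log2 fold change in brain of the 40 receptor genes tested (red circles) and of all 14515 genes tested (grey squares) for 6 comparisons, on 3 scales from left to right. In the 3 comparisons with healthy rats the red circles lie below the grey squares in each panel, while their position against 0 at day 31 changes from -0.55 to 0.91 and 0.60.

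Counted by library, 25 of 40 genes had all 3 control libraries below all 3 healthy libraries at day 4 (10.4% of all genes), 13 at day 10 (7.03%) and 16 at day 31 (6.39%). When CPM was taken over all counts, an alternative chosen after seeing the data, these counts were 3 (1.06%), 5 (3.58%) and 0 (0.0482%), and 19 genes were higher without overlap at day 31, where 74.7% of all genes were.

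The 4 AMPA subunits, which carry fast excitatory transmission, were all below 0 at each of the 3 days on the TMM scale, with medians of -1.45, -0.82 and -0.61, and all 4 were above 0 at day 31 when scaled by all counts. Gria3 measured 264, 243 and 224 CPM in the 3 healthy libraries and 63.9, 87.3 and 47.2 CPM at day 4. The highest day 4 library was far below the lowest healthy one. Gria3 fell by 1.88 ± 0.35 on the log2 scale (SE, adjusted p = 0.0142, edgeR). At day 10 it measured 200.3, 103 and 112 CPM and at day 31 141, 98.2 and 159.6 CPM, all below the healthy libraries on this scale. Its log2 differences there were -0.81 ± 0.35 and -0.87 ± 0.34, which did not pass (adjusted p = 0.326 and 0.558, edgeR). The day 4 call was lost without control replicate 1 or 3 or healthy replicate 1 or 3, at adjusted p of 0.0559 to 0.0943 (edgeR), with totals of all counts (log2 difference -1.10, adjusted p = 0.456, edgeR) and on log2(FPKM + 1) (log2 difference -0.72, adjusted p = 0.256, limma).

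Gria2 measured 528, 521 and 637 CPM in healthy brain and 186, 188 and 183 CPM at day 4, a log2 difference of -1.60 ± 0.41 (adjusted p = 0.0628, edgeR). The day 4 libraries were close to each other and apart from the healthy ones. At day 10 they spread over 499, 67.6 and 301 CPM and at day 31 over 469, 365 and 438 CPM. DESeq2 called Gria2 lower at day 4 (adjusted p = 0.00330). Gria1, the subunit prominent in activity-dependent receptor insertion, measured 351, 257 and 423 CPM in healthy and 109.6, 211 and 186 CPM in day 4 brain, a log2 difference of -1.03 ± 0.36 (adjusted p = 0.165, edgeR). Its groups did not overlap at day 4, but at day 10 the control libraries at 348, 118 and 301 CPM overlapped with the healthy ones. Gria4 was at -1.30 ± 0.76 on the log2 scale at day 4 (adjusted p = 0.493, edgeR).

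**Figure D2:**
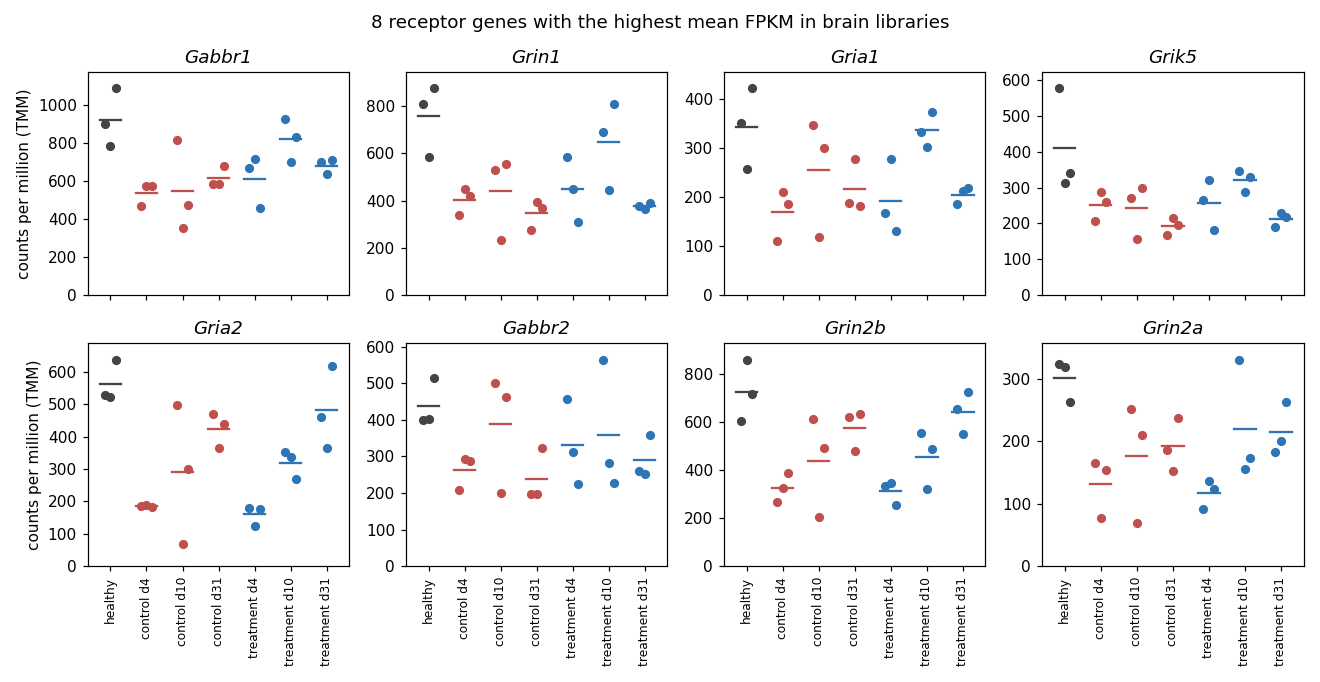
CPM (TMM scale) in each brain library (points) with the group mean (line) for the 8 receptor genes with the highest mean FPKM, in healthy (black), control (red) and treatment (blue) rats, 3 per group. For Gria2 the 3 day 4 control libraries lie between 183 and 188 CPM, below the lowest healthy library.

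Of the 6 NMDA subunits tested, 5 were below 0 at each day on the TMM scale, and all 6 were above 0 at day 31 when scaled by all counts. Grin1 measured 810.5, 587 and 876 CPM in healthy brain, 338, 449 and 420.1 CPM at day 4, 531, 231 and 555 CPM at day 10 and 275, 394 and 367 CPM at day 31. No control library reached the lowest healthy one. The log2 differences were -0.91 ± 0.31, -0.79 ± 0.31 and -1.13 ± 0.31 (adjusted p = 0.158, 0.280 and 0.397, edgeR), and DESeq2 called Grin1 lower at day 4 and day 31 (adjusted p = 0.0452 and 0.0172). With all counts as the scale the 3 differences were -0.07, -0.89 and 0.44. The day 10 difference on the TMM scale was -0.47 without control replicate 2.

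Grin2a and Grin2b encode the glutamate-binding subunits most used in the forebrain, Grin2b being the earlier one in development. Grin2b measured 604, 860.1 and 715 CPM in healthy brain, 266, 323 and 387 CPM at day 4 and 619.5, 478 and 634 CPM at day 31. It was apart from healthy at day 4 and overlapped at day 31. The log2 difference at day 4 was -1.16 ± 0.31 (adjusted p = 0.0764, edgeR) and DESeq2 called it lower (adjusted p = 0.00330). Grin2a measured 324, 319 and 263 CPM in healthy and 165, 76.8 and 154 CPM in day 4 brain, with a log2 difference of -1.20 ± 0.40 (adjusted p = 0.148, edgeR). Grin2c, used in cerebellum and by some astrocytes, measured 234, 147 and 227 CPM in healthy and 188, 169 and 138 CPM in day 4 brain, where the groups overlapped. Grin3a was listed at 0 in all 3 control libraries of day 10, and at 0, 9.97 and 7.32 CPM in healthy brain.

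The 5 kainate subunits were below 0 at day 4 and day 10 and 4 of 5 at day 31 on the TMM scale; with all counts as the scale, all 5 were above 0 at day 31. Grik5, a subunit that forms channels together with other kainate subunits, measured 578, 312 and 342 CPM in healthy brain, 206, 289 and 261 CPM at day 4 and 168, 215 and 195 CPM at day 31, with no overlap on either day. Its log2 differences were -0.70 ± 0.29 and -1.09 ± 0.30 (adjusted p = 0.251 and 0.397, edgeR), and 0.21 and 0.57 with all counts as the scale. The day 4 difference was -0.40 without healthy replicate 1. Grik2 measured 103, 79.3 and 129 CPM in healthy brain and 14.2, 31.6 and 27.5 CPM at day 4, the largest difference among the kainate subunits that day. Its log2 difference was -2.09 ± 0.59 (adjusted p = 0.0896, edgeR), and DESeq2 called it lower (adjusted p = 0.00549). The delta receptor gene Grid1, which links synaptic partners, was at -0.46 ± 0.85 on the log2 scale at day 4 and did not pass the test.

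All 7 metabotropic glutamate receptor genes tested were below 0 at day 4, and their median log2 difference was -0.94. Grm5, which couples to phospholipase C, measured 168, 151 and 145 CPM in healthy brain and 67.3, 77.4 and 96.6 CPM at day 4 without overlap. Its log2 difference was -0.94 ± 0.41 (adjusted p = 0.265, edgeR). Grm3, which astrocytes also express, measured 91.3, 188 and 78.2 CPM in healthy and 97.3, 69.1 and 155 CPM in day 4 brain, where the groups overlapped. Its log2 difference there was -0.16 ± 0.49 on the TMM scale and 0.40 with all counts as the scale.

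**Figure D3:**
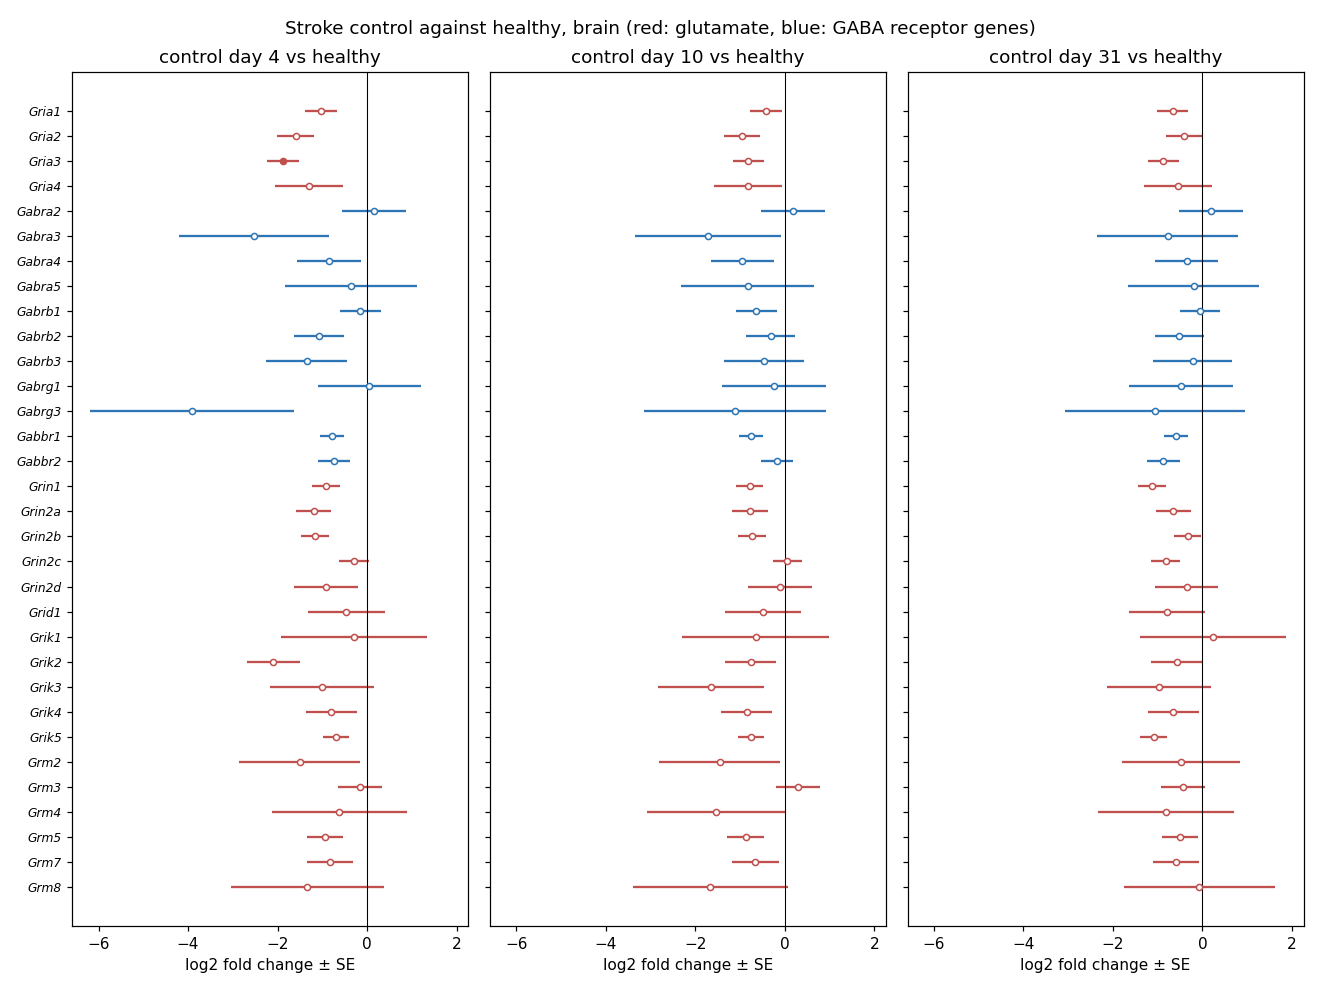
Log2 fold change with its standard error (edgeR, TMM scale) of control against healthy brain at day 4, 10 and 31 for 32 receptor genes, glutamate in red and GABA in blue, filled where called. The 1 filled point is Gria3 at day 4 (-1.88), and 8 of the 40 genes tested are not drawn: Gabrd, Gabrq, Gabrr2 and Grin3a, where a whole group was at 0 in at least 1 comparison, and 4 whose single results are not reported here.

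Among the 14 GABA-A subunits tested, 11 were below 0 at each day on the TMM scale, none was called at any day, and all 14 were above 0 at day 31 when scaled by all counts. Gabra2 measured 5.03, 54.3 and 64.2 CPM in healthy brain and 53.6, 29.8 and 54.4 CPM at day 4, and 1 healthy library was far below the other two. Gabrd, found in receptors outside synapses, measured 18.0, 15.1 and 10.4 CPM in healthy brain, 0, 5.06 and 4.55 CPM at day 4 and 0 in all 3 control libraries at day 10. DESeq2 called Gabrd lower at day 10 (adjusted p = 0.0140), but its counts were few. Gabrr2, a rho subunit best known from the retina, was at 0 in the 3 healthy libraries and at 3.08, 4.17 and 0 CPM at day 4.

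Both GABA-B subunits, which must pair to form a receptor, were below 0 at each day on the TMM scale and above 0 at day 31 when scaled by all counts. Gabbr1 measured 897, 782 and 1085 CPM in healthy brain, 466, 573 and 571 CPM at day 4, 812, 350.2 and 470.3 CPM at day 10 and 585, 580.4 and 675 CPM at day 31. The groups overlapped at day 10 through 1 control library. The log2 differences were -0.78 ± 0.26, -0.76 ± 0.26 and -0.59 ± 0.26 (adjusted p = 0.155, 0.235 and 0.630, edgeR), and with all counts as the scale 0.02, -0.89 and 0.94. The day 10 difference on the TMM scale was -1.16 without control replicate 1. DESeq2 called Gabbr1 lower at day 4 and day 10 (adjusted p = 0.0240 and 0.0485). Gabbr2, the subunit that couples to the G protein, was at -0.74 ± 0.36 at day 4 (adjusted p = 0.353, edgeR).

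Genes that work with these receptors were taken from 5 lists. Median log2 differences at day 4 were -0.72 for 16 auxiliary subunits of AMPA and kainate receptors, -0.47 for 18 scaffold genes, -0.38 for 12 partners of GABA receptors, -0.84 for 9 transporters of glutamate and GABA and -0.34 for 10 enzymes. These medians are on the TMM scale, where the median of all genes tested was 0.05. With all counts as the scale that median was 0.75, and the list medians are not given there. None of the genes of the first 4 lists was called at any day, where edgeR called 0.861%, 0.572% and 0.00689% of all genes at day 4, 10 and 31. With shares this low, the absence of calls is not read as particular to these lists. Among the enzymes 1 was called: Glul, glutamine synthetase of astrocytes, rose by 1.61 ± 0.31 on the log2 scale at day 4 (SE, adjusted p = 0.0144, edgeR).

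Markers of cell types also differed between the groups. Summed pan-neuronal markers were 5048 to 6148 CPM in healthy brain, 2092 to 3550 at day 4, 1297 to 4420 at day 10 and 4423 to 6387 at day 31. Summed astrocyte markers were 1022 to 1066 CPM in healthy brain and 3127 to 3491 at day 4, and summed microglia and macrophage markers 60.9 to 76.9 CPM in healthy brain and 319 to 714 CPM at day 4. Gfap, the intermediate filament of reactive astrocytes, rose by 2.25 ± 0.36 on the log2 scale at day 4 (SE, adjusted p = 0.0110, edgeR). The ratio of summed receptor counts to summed pan-neuronal marker counts, which needs no scale and was chosen after seeing the data, was 1.23 ± 0.19 in healthy brain (SD, n = 3), 1.26 ± 0.20 at day 4, 1.66 ± 0.26 at day 10 and 0.843 ± 0.109 at day 31. At day 4 the ratio overlapped with the healthy one, and at day 31 it was below it in all 3 libraries. The part of these markers in the receptor values was not tested, and in bulk vesicle RNA fewer cells of a type and less RNA per cell cannot be told apart.

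The balance of glutamate to GABA receptor transcripts was also read without a scale. Their summed CPM had a ratio of 2.27 ± 0.32 in healthy brain (SD, n = 3), 1.89 ± 0.05 at day 4, 2.01 ± 0.46 at day 10 and 2.20 ± 0.25 at day 31. The day 4 values of 1.84 to 1.94 lay below the healthy values of 2.09 to 2.64, and the other days overlapped with healthy.

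Subunit ratios within a receptor were compared as the log2 ratio of counts with 0.5 added, by exact permutation tests, two-sided, with p adjusted over 12 comparisons of 6 ratios. None of the 3 ratios given here passed after adjustment, either between control and healthy or between treatment and control. Control minus healthy is given for each, with the 9 control rats of the 3 days pooled. Grin2a/Grin2b, often read as a sign of subunit maturity, differed by -0.19 (exact p = 0.486), Gria1/Gria2 by 0.37 (exact p = 0.418) and Gabbr1/Gabbr2 by -0.09 (exact p = 0.764). Mean log2 Gria1/Gria2 was -0.73 in healthy brain and -0.19, 0.09 and -0.99 in control rats at day 4, 10 and 31. For Gabbr1/Gabbr2 these means were 1.07, 1.04, 0.51 and 1.39. Both ratios thus lay on different sides of healthy by day, while mean Grin2a/Grin2b was below healthy at each day.

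Whether hNSCs altered receptor transcripts in brain vesicles was asked at each day against control rats of the same day. No receptor gene was called by edgeR at day 4, 10 or 31 or in the mean of the days, where 0% of 14515 genes were called in each. DESeq2 called none of the 40 either, where it called 1.52%, 4.49%, 0% and 2.36% of all genes. With limma none was called, but its share of all genes is not given here, so that count is not read as a result about the receptors. At an unadjusted p under 0.05 the counts of receptor genes were 1, 2, 0 and 2, beside 7.53%, 13.4%, 0.0896% and 7.68% of all genes. The median log2 difference of the 40 genes was -0.06 at day 4, 0.00 at day 10 and 0.14 at day 31, beside -0.11, -0.34 and 0.00 for all genes. Leaving out single libraries took the receptor medians across 0, from -0.21 (without control replicate 1) to 0.011 (without treatment replicate 3) at day 4, from -0.24 (without control replicate 2) to 0.35 (without control replicate 1) at day 10 and from -0.0075 (without treatment replicate 3) to 0.17 (without treatment replicate 2) at day 31. With all counts as the scale these were -0.65, -0.19 and 0.21, beside -0.66, -0.55 and 0.07. Fitted values below 0 were counted for 22, 19 and 16 of the 40 genes, and 56.5%, 62.5% and 49.4% of all genes.

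Gabbr1 measured 665, 713 and 455 CPM in treated rats at day 4, 925, 698 and 829 CPM at day 10 and 697, 633 and 709.7 CPM at day 31. The treated libraries overlapped with the control ones at each day. At day 10 the log2 difference was 0.59 ± 0.26 (adjusted p = 0.348, edgeR), and it was 0.34 without control replicate 2 and 0.98 without control replicate 1. Grin1 measured 691, 446 and 811 CPM in treated rats at day 10, a log2 difference of 0.56 ± 0.31 (adjusted p = 0.430, edgeR), with overlap, and this was 0.25 without control replicate 2 and 0.81 without treatment replicate 2. Gria3 measured 89.6, 96.7 and 101 CPM at day 4 after treatment, each value above the 3 control values of that day. Its log2 difference was 0.54 ± 0.35 (adjusted p = 0.978, edgeR; 0.33 without control replicate 3), and all treated values remained below the healthy ones. Gria2 measured 179.6, 125 and 175 CPM at day 4, each below the control values. The margin was small except for treatment replicate 2 at 125 CPM (log2 difference -0.21 ± 0.40, and -0.072 without treatment replicate 2). In all, 3 genes were lower and 1 higher without overlap at day 4 (6.82% and 2.62% of all genes), 1 and 0 at day 10 (7.06% and 1.61%), and 0 and 2 at day 31 (2.67% and 3.29%).

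**Figure D4:**
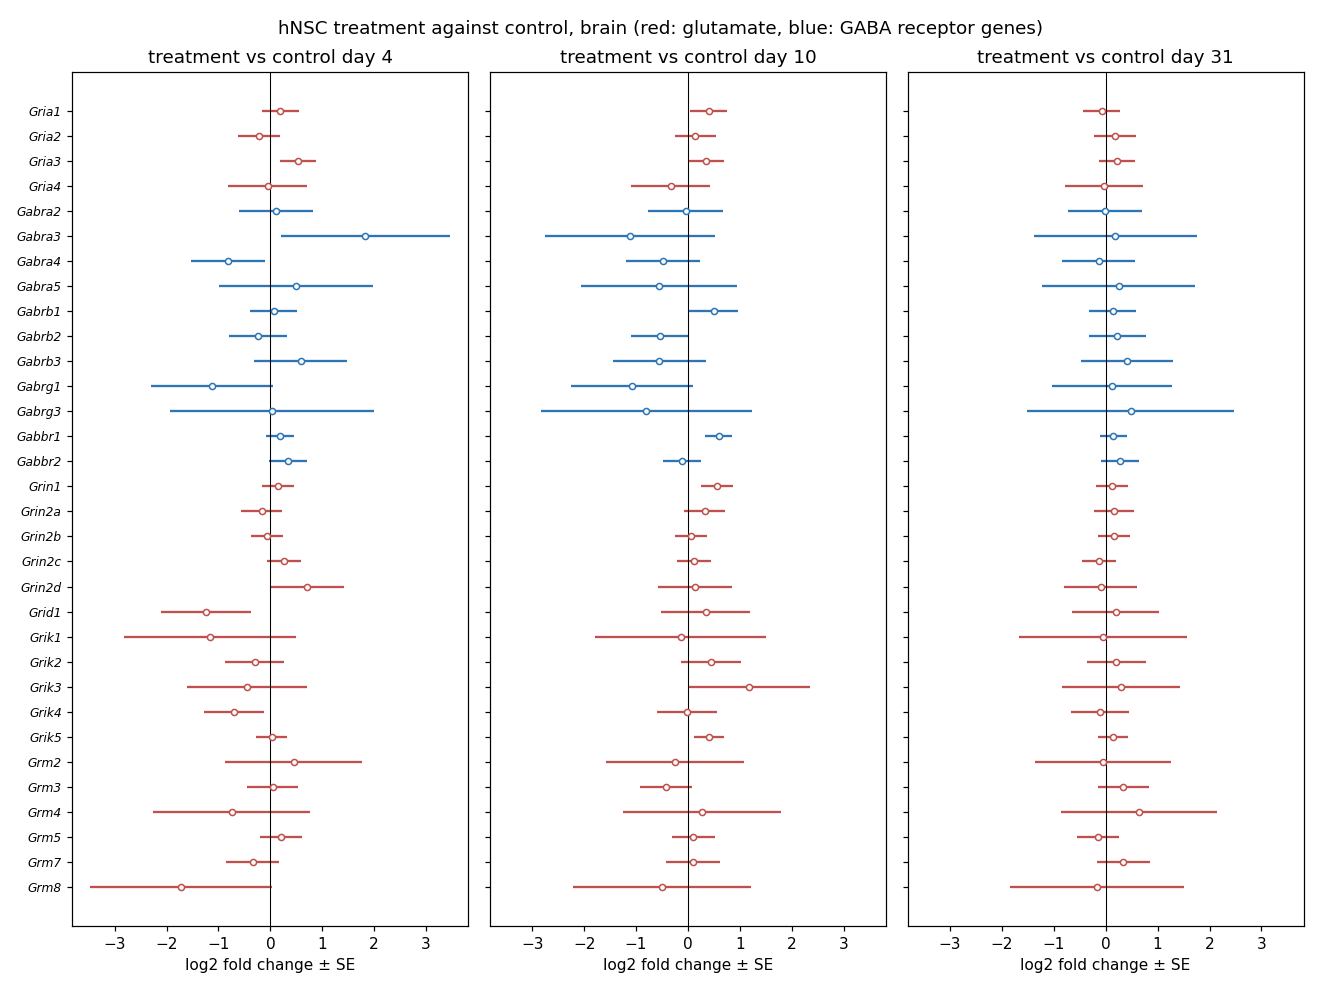
Log2 fold change with its standard error (edgeR, TMM scale) of treatment against control brain at day 4, 10 and 31 for the same 32 receptor genes, glutamate in red and GABA in blue, none called. The points lie on both sides of 0 at each day, Gabbr1 at day 10 being at 0.59.

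The third treated library of day 10 was the shallowest in brain, with 569136 counts on annotated genes and 25 of the 44 receptor genes detected. The change of the treatment difference between day 4 and day 31 was called for none of the 40 genes by edgeR (0% of all genes) or DESeq2 (0.730%), and none had an unadjusted p under 0.05 (4.23%).

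Plasma vesicles held few receptor transcripts. Of 924 values, 44 genes in 21 libraries, 105 were above 0, and 42 of these came from 2 libraries, treatment day 4 replicate 2 with 20 genes and treatment day 10 replicate 3 with 22. The other 19 libraries held 0 to 6 receptor genes each, although 6357680 or more counts fell on annotated genes in every plasma library. Across plasma 33 genes had a count in at least 1 library, 14 of them in those 2 libraries alone, and 11 had none. In a single library, 3 counts correspond to 0.0851 to 0.381 CPM, which is the level below which absence cannot be read.

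**Figure D5:**
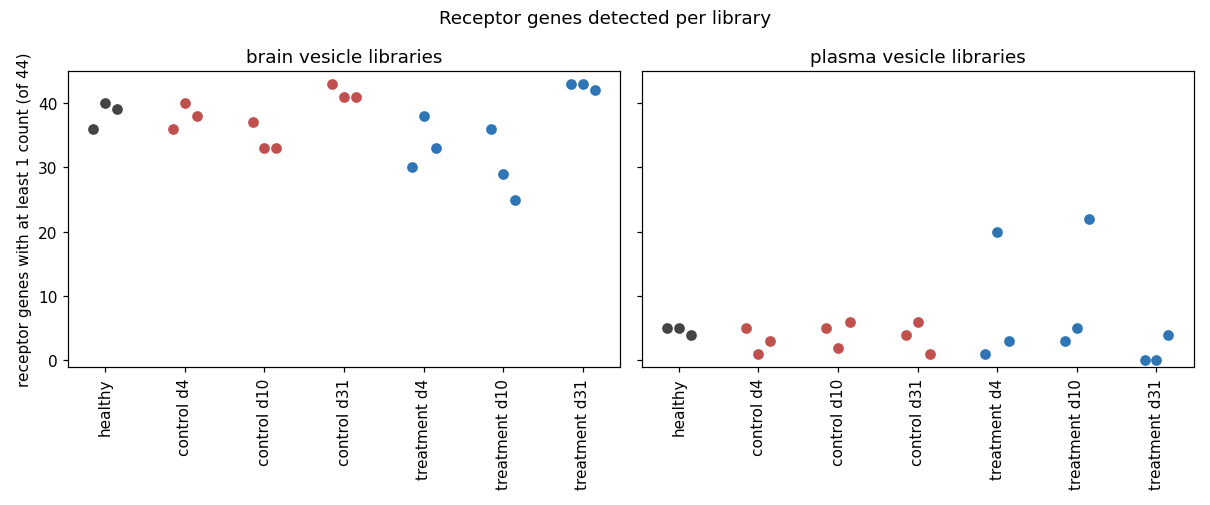
Number of the 44 receptor genes with at least 1 count in each brain (left) and plasma (right) library, 3 per group. Brain libraries hold 25 to 43 genes, and plasma libraries 0 to 6 apart from 2 treated libraries with 20 and 22.

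Gabbr1, Gabrr2 and Gabrr3 were among the 4 genes with the highest mean FPKM in plasma, at 0.433, 0.425 and 0.204 FPKM. Gabbr1 had 0, 80 and 104 counts in the healthy libraries, 152, 0 and 304 in control rats at day 4, 0, 292 and 375 at day 10 and 159, 72 and 0 at day 31. High counts stood beside 0 within a group, so no group was apart from another. Gabbr1 in treated rats had 0, 0 and 713 counts at day 4, 85, 282 and 79 at day 10 and 0, 0 and 990 at day 31. Gabrr2 had 67, 272 and 0 counts in healthy plasma and 0 in all 3 control libraries at day 4. Gabrr3 rested on 1 library, treatment day 4 replicate 2, with 213 counts.

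Of the 44 genes, 10 passed the filter in plasma and none was called by edgeR in any of the 8 comparisons. Of the 14720 genes tested, edgeR called 0.0679% for control against healthy at day 4, 0.00679% for treatment at day 4 and 0% in the other 6. At an unadjusted p under 0.05 at most 1 of the 10 was counted in each, where the share of all genes was 5.86%, 5.60%, 4.75% and 9.61% against healthy at day 4, 10 and 31 and in the mean, and 3.94%, 4.06%, 8.57% and 6.53% for treatment. The change of the treatment difference between day 4 and day 31 was called for none by edgeR (0.00679% of all genes; 2 at an unadjusted p under 0.05, beside 9.96%) and for 3 by DESeq2 (11.9% of all genes). DESeq2 called 6.16%, 8.25%, 4.48% and 6.15% of all genes against healthy and 5.93%, 7.76%, 11.3% and 9.48% for treatment. Among the receptor genes it called 1 or 2 in each of the 8 comparisons, namely Grik5, Grin2d or Gabra2, with a whole group at 0 in most of them, so no fold is given. None of these 10 genes had 3 plasma libraries apart from the 3 others in any comparison of 2 groups. The share of all genes without overlap in plasma is not given here, so this is not read as particular to them.

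Brain and plasma vesicles were then compared. Of 42 genes tested, 36 were called higher in brain and none higher in plasma, where 29.0% of 16945 genes were called higher in brain and 25.3% lower. These shares are not like for like. Within a tissue, 40 receptor genes passed the filter in brain and 10 in plasma, beside 14515 and 14720 of all genes. Most receptor genes thus entered this test through their brain counts, and such genes could hardly be called higher in plasma. With the replicate number as a block, taken as the same rat although the labels do not tie a brain library to a plasma library, 41 were called higher in brain (34.1% of all genes), DESeq2 called 40 (34.4%) and limma on log2(FPKM + 1) 21 (6.77%). Gabbr1 was higher in brain by 6.10 ± 0.83 on the log2 scale (SE, adjusted p = 9.68e-08, edgeR). This size holds for TMM factors, which are limited across tissues of unlike composition. Annotated genes took a median of 20.6% of all counts in brain and 61.4% in plasma. The 6 genes not called were Gabrd, Gabre, Gabrq, Gabrr2, Grin3a and Grm6, each at 0 in many libraries. Gabrr2 had counts in 10 of 21 plasma libraries and in 8 of 21 brain libraries.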

How the data were processed

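RNA of extracellular vesicles from brain tissue and plasma was sequenced by the authors with a stranded total RNA kit, and the reads were aligned by the authors to Rnor_6.0 with Bowtie2. FPKM came from StringTie; the tool behind the raw counts is not given in the sources used here. The authors deposited raw counts and FPKM per gene for 42 mRNA libraries, 3 rats in each of 7 groups and both tissues, and no per-sample column was left unused (0). The microRNA tables were not used.

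Annotated genes held 3.18 to 51.9% of the counts of a brain library and 45.1 to 75.6% of a plasma library, and the other rows stayed out of the tests. Counts on annotated genes were tested with edgeR 4.0.16 (R 4.3.3, quasi-likelihood test, TMM factors, filterByExpr, Benjamini-Hochberg over all genes tested), 1 model per tissue, with no covariate. Called genes had an adjusted p below 0.05 and differed by more than 1.5-fold. SE is the log2 difference divided by the square root of F. DESeq2 1.42.0, limma 3.58.1 on log2(FPKM + 1) or log2(FPKM + 0.1), no filter, totals of all counts, only the groups compared, a replicate block and leaving out each library were alternatives. Fits were tested on simulated data. The genes named are the 8 highest in brain and 4 in plasma by mean FPKM, the genes of 6 ratios, and up to 8 called genes per comparison (4 from the pathway lists); others were named after their values were seen. Results for some single receptor genes are not reported here. The genes and lists were chosen with earlier results of these data known.

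Brain and plasma libraries with the same replicate number were taken as 1 rat in the block, an assumption the labels do not settle. Same-numbered brain libraries of treatment and control at day 31 deviated together (r = 0.254, 0.280 and 0.330), and the block changed no call there. Counting limits cover counting error only.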

Additional observations from a re-analysis of the deposited data

Results flagged for a closer look

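Grm7, a presynaptic metabotropic glutamate receptor, was the 1 receptor gene for which every treated brain library lay on one side of the control libraries at one day and on the other side at another. At day 4 the treated libraries measured 42.4, 60.3 and 67.9 CPM and the control libraries 68.3, 74.7 and 73.2 CPM, a log2 difference of -0.34. At day 31 the treated libraries measured 97.5, 94.7 and 131 CPM and the control libraries 85.7, 78.8 and 91.5 CPM, a log2 difference of 0.34. The change between the days was 0.68 ± 0.72 (SE, adjusted p = 1.00, edgeR), so it did not pass the test. Grm7 was picked by looking through all 40 genes tested and all days. Of all genes, 6.82% were lower without overlap at day 4 and 3.29% higher without overlap at day 31. The share of all genes that changed sides in this way is not given here, so the pattern is not read as particular to Grm7.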

How the results depend on the processing

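With another scale, the median log2 difference of the 40 receptor genes in control against healthy brain moved to -0.18 at day 4, 0.91 at day 31 and -0.12 in the mean of the days (totals of all counts), to -0.033, 0.60 and 0.11 (limma on log2(FPKM + 1)), and to -0.044, 1.19 and 0.25 (limma on log2(FPKM + 0.1)). For treatment against control at day 4 it moved to -0.65 with totals and to -0.53 with log2(FPKM + 0.1). The number of receptor genes called in control against healthy brain was 7, 2, 2 and 6 at day 4, day 10, day 31 and in the mean with DESeq2. It was 0 at day 4 with totals and with both limma fits, and 20 and 19, all higher, at day 31 with log2(FPKM + 1) and log2(FPKM + 0.1). On log2(FPKM + 1), 57.0% of all genes were called higher at day 31. Without the filter it was 2 at day 4 and 1 in the mean, and with only the groups compared 4 and 1. Shares of all genes called are not given for log2(FPKM + 0.1), no filter or only the groups compared. Nor are they given for the replicate block within brain or for leaving out 1 library. They are also not given within brain for totals of all counts, or for log2(FPKM + 1) other than at day 31 against healthy. The counts under these settings show only how the calls moved.

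Leaving out 1 library gave 0 to 1 calls at day 4 (0 without control replicate 1 or 3 or healthy replicate 1 or 3), 0 to 2 at day 10 and 0 to 4 in the mean, the 2 and the 4 without control day 10 replicate 1. For treatment it gave 0 to 1 at day 4 (1, Grid1, without treatment replicate 2) and 0 to 1 at day 10 (1 without treatment replicate 1). Ratios that crossed 0 without 1 library were Gria1/Gria2 (-0.10 to 0.18) and Grin2a/Grin2b (-0.041 to 0.19) for treatment, and Gabbr1/Gabbr2 (-0.16 to 0.034) for control against healthy. In plasma DESeq2 called 1, 1, 2 and 1 genes against healthy and 2, 1, 1 and 1 for treatment, and 3 for the change between days, where edgeR called 0. Brain against plasma gave 21 with limma on log2(FPKM + 1), where edgeR gave 36.

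At day 31 against healthy these single genes turned from lower to called higher with limma on log2(FPKM + 1): Gabbr1 at 1.34, Gabbr2 at 0.85, Gria1 at 1.17, Gria2 at 1.29, Grik5 at 0.83, Grin2a at 0.82, Grin2b at 1.23 and Grm5 at 0.79. With log2(FPKM + 0.1) these did so: Gabbr1 at 1.51, Gabrd at 0.99, Gria1 at 1.40, Gria2 at 1.64, Grin2b at 1.71 and Grm5 at 1.41. On log2(FPKM + 1), 57.0% of all genes were called higher at day 31. The median there was 0.69 for all genes and 0.60 for the 40 receptor genes, so these genes rose along with most others.

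With the replicate number as a block, 2 genes were called at day 4 against healthy (Gria2 and Gria3), and no other call in brain changed. Apart from treatment at day 31 in brain, same-numbered libraries of 2 groups did not all deviate together. Each comparison rests on 3 correlations, so this cannot show whether the numbers pair other groups within a tissue. Depth limits the genes with few counts, since 3 counts in a brain library correspond to 0.184 to 4.52 CPM.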
